A study of Mus musculus with 12 samples.

Results

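Semaphorins are guidance proteins, and plexins and neuropilins are their receptors. The genes described here are every gene in the tables whose symbol starts with Sema and a digit or with Plxn, together with Nrp1 and Nrp2. The rule uses names alone and gave 31 of 22667 gene IDs, namely 20 ligands (7 of the secreted class 3 and 13 of the membrane-bound classes 4 to 7), 9 plexins and 2 neuropilins. They were measured in cortex and hippocampus of mouse embryos at stage E18.5, in controls labelled wild type and in knockouts of the neuronal splicing regulator nSR100, also called Srrm4 (KO). All samples carry the same protocol. EUCOMM stem cells of 2 clones carrying the conditional allele nSR100lox were aggregated with outbred ICR morulae, and the line was kept on C57Bl/6N. Crossing to the Cre line B6.C-Tg(CMV-cre)1Cgn/J, in which the cytomegalovirus promoter drives Cre, removed exons 7 and 8. The labels do not say whether control embryos carried Cre, nor the age or sex of each embryo beyond its stage. The 12 samples reached 8 libraries, 2 in each of the groups cortex control, cortex KO, hippocampus control and hippocampus KO.

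Class 3 semaphorins are secreted and mostly act through a complex in which a neuropilin binds the ligand and a plexin carries the signal into the cell. The other classes stay at the membrane and mostly bind plexins directly, which act on the cytoskeleton of the growth cone. In the developing forebrain these proteins steer axons, migrating interneurons and dendrites. In the hippocampus they are known for sorting entorhinal, mossy fibre and commissural inputs into layers.

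Between 58210499 and 140052443 reads were counted per library, and the members took 0.398% to 0.418% of them in cortex and 0.514% to 0.602% in hippocampus. The 2 hippocampus KO libraries lay apart. In replicate 1 mitochondrial genes took 4.40% of the counts, against 3.14% to 3.44% elsewhere. It was the lowest of the 4 hippocampus libraries for 20 of the 31 members, against 24.7% of all genes tested. Hippocampus KO replicate 2 was the highest of the 4 for 17 of the 31 members, against 23.0% of all genes tested. Some comparisons that rest on hippocampus KO replicate 1 are also given without it, which leaves replicate 2 as the only hippocampus KO library. The others include it. Srrm4 matched the labels, with 25.2 and 24.2 RPKM in the cortex controls, 8.12 and 6.97 in cortex KO, 26.03 and 27.9 in the hippocampus controls and 5.68 and 6.16 in hippocampus KO. Over both tissues its log2 fold change was -1.96 with SE 0.11 (edgeR, adjusted p = 0.00016).

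RPKM, the count scaled by gene length and by the library's total, allows levels of different genes to be compared. All 31 members were above the filter on low counts, with at least 66 counts in each library, and 24 lay above the median tested gene, which had 8.36 RPKM over all libraries. The median member was at 2.23 RPKM among the class 3 ligands, at 15.4 RPKM among the membrane-bound ligands and at 42.9 RPKM among the receptors. Nrp1 (91.2 RPKM), Nrp2 (63.9 RPKM) and Plxna2 (58.8 RPKM) had the highest means over the 8 libraries. At the low end, Sema3d, Sema3g, Sema3b and Plxnb3 had means under 1 RPKM, from 0.894 down to 0.274. Exons of Nrp1, Plxna1, Plxna4, Plxnb1, Plxnc1, Sema4a and Sema4c overlap those of another gene in GENCODE M21, none of which is in the tables, and with the strand setting unknown the reads of such pairs cannot be told apart.

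**Figure D1:**
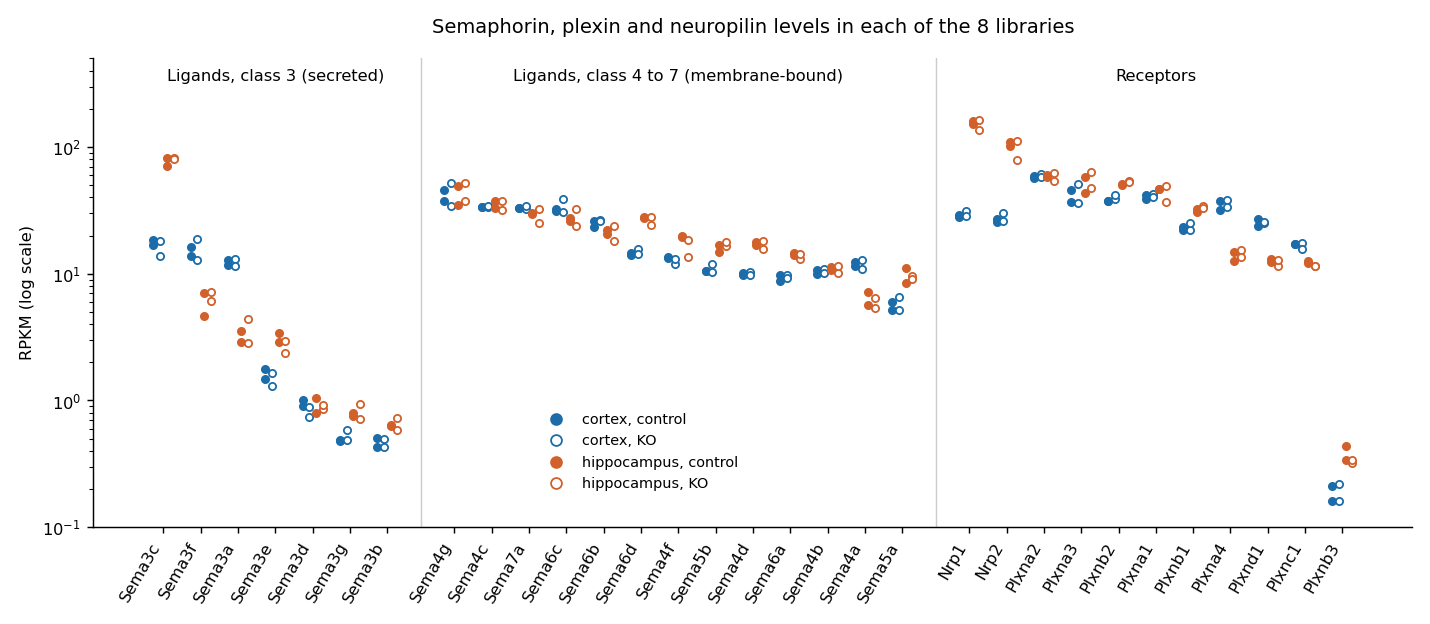
RPKM of each of the 31 genes on a log scale, by role, with 1 point per library (filled, control; open, KO; blue, cortex; orange, hippocampus). Sema3c, Nrp1 and Nrp2 have their orange points far above the blue ones, whereas those of Sema3a, Sema3f, Plxna4 and Plxnd1 lie below.

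Promoters were looked up for members with a tissue difference of at least 1 on the log2 scale in both genotypes. The share of all genes at that size was not counted. The members were Nrp1, Nrp2, Sema3c, Sema3a, Sema3f, Plxna4 and Plxnd1. To show what lies before their starts, 250 bases upstream of the transcription start are printed below for the 5 with a single entry in the RefSeq promoter table (GRCm38.p6), 5′ to 3′ on the gene's strand. Windows exist for 26 of the 31 members in that table, and none for Sema3f or Plxna4. Capitals mark the GC box, GGGCGG or its reverse CCGCCC, adjoining boxes included. Nrp1 (chr8:128358823-128359072, plus strand), Nrp2 (chr1:62703067-62703316, plus) and Sema3c (chr5:17574566-17574815, plus) were higher in hippocampus. Sema3a (chr5:13396534-13396783, plus) and Plxnd1 (chr6:115995006-115995255, minus) were lower.
Nrp1: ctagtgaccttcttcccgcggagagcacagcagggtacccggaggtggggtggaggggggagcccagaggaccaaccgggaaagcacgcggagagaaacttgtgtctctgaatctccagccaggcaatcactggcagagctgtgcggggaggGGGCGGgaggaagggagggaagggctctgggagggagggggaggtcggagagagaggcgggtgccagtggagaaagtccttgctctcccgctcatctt
Nrp2: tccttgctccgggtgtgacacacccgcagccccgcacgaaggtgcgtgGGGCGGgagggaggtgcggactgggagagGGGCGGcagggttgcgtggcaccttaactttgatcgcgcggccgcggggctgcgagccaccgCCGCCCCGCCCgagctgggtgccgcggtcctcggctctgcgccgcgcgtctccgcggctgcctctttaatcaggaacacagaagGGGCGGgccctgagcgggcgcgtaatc
Sema3c: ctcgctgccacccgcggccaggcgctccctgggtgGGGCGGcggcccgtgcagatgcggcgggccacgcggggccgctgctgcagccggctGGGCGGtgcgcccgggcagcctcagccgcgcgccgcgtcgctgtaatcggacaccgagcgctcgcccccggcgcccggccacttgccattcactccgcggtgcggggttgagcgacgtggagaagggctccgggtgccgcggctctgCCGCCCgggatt
Sema3a: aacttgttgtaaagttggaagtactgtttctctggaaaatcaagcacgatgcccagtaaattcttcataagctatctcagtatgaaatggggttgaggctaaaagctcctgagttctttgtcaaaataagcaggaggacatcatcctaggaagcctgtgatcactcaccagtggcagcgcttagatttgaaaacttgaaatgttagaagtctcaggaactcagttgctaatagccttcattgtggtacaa
Plxnd1: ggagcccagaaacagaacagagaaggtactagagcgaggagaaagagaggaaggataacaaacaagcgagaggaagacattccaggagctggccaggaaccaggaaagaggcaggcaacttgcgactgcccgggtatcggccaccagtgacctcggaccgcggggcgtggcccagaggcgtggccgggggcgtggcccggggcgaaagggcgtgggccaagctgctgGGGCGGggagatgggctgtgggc
The Sema3c window holds 78.4% G and C with 39 CpG and 3 GC boxes, and the Nrp2 window 72.4% with 32 CpG and 5 GC boxes. Plxnd1 (64.8%, 16 CpG) and Nrp1 (64.4%, 11 CpG) hold 1 GC box each, and Sema3a (40.8%, 2 CpG) holds none. Among all 32851 windows of this length in the table, 32.7% contain a GC box, the median GC content is 52.4% and the median window has 6 CpG. Neither TATAAA (in 12.4% of all windows) nor CCAAT (in 33.8%) occurs on either strand of the 5 windows. These letters describe the windows and are no evidence of binding.

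The first comparison asked how hippocampus differed from cortex in controls. Of the 31 members, 14 were higher and 6 lower in hippocampus (edgeR, Benjamini-Hochberg adjusted p under 0.05 over 16111 genes). Tissue differences were common in these data, with 33.9% of all tested genes passing, 19.0% as higher and 14.9% as lower. Numbers standing first in parentheses below are log2 fold changes of hippocampus over cortex, followed by their standard error (SE). The median absolute log2 fold change was 0.56 over the members and 0.25 over all genes. The control libraries of the tissues did not overlap for 26 members, against 68.2% of all genes. In such bulk tissue, fewer cells of a type and less RNA per cell cannot be told apart.

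Among the secreted ligands, 3 rose and 2 fell of 7. Sema3c, a ligand of both neuropilins, lay at 18.49 and 16.9 RPKM in the cortex controls, 18.2 and 13.8 in cortex KO, 82.2 and 70.2 in the hippocampus controls and 81.4 and 80.5 in hippocampus KO. All 4 hippocampus libraries were far above all 4 cortex libraries, whatever the genotype. In controls the log2 fold change was 2.04 (SE 0.16, 95% interval 1.68 to 2.40, adjusted p = 4.7e-05, edgeR), a fitted difference of 4.10-fold. Sema3a, which repels axons through Nrp1 and plexins A, went the other way, at 12.9 and 11.7 RPKM in the cortex controls, 13.1 and 11.5 in cortex KO, 3.55 and 2.87 in the hippocampus controls and 4.41 and 2.82 in hippocampus KO. Its highest hippocampus library was well below its lowest cortex library. It was 4.01-fold lower in control hippocampus (log2 fold change -2.00, SE 0.21, 95% interval -2.48 to -1.52, adjusted p = 0.00021, edgeR). Sema3f, the classical ligand of Nrp2, lay at 13.7 and 16.4 RPKM in the cortex controls, 12.7 and 18.7 in cortex KO, 4.68 and 7.0 in the hippocampus controls and 6.14 and 7.19 in hippocampus KO. Again no hippocampus library reached the cortex range, and the log2 fold change in controls was -1.45 (SE 0.21, adjusted p = 0.0013, edgeR).

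The makeup of the secreted group differed between tissues. In cortex Sema3c was 1.20 to 1.44 times Sema3a and 0.737 to 1.43 times Sema3f. In hippocampus it was 18.46 to 28.6 times Sema3a and 10.03 to 17.6 times Sema3f. Sema3c made up 29.3% to 38.3% of the summed class 3 RPKM in cortex and 82.4% to 85.4% in hippocampus, while Sema3a made up 24.2% to 27.6% and 2.94% to 4.57%. The sum itself was 47.1 to 48.8 RPKM in cortex and 85.2 to 96.5 RPKM in hippocampus.

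The remaining secreted ligands were low. Sema3e, which binds Plxnd1 without a neuropilin, lay at 1.78 and 1.48 RPKM in the cortex controls, 1.66 and 1.29 in cortex KO, 3.42 and 2.9 in the hippocampus controls and 2.36 and 2.93 in hippocampus KO. All hippocampus libraries were above all cortex libraries (log2 fold change in controls 0.88, SE 0.19, adjusted p = 0.0075, edgeR), although the call was lost without cortex control replicate 2 (adjusted p = 0.063). Sema3g was higher in hippocampus as well (0.60, SE 0.17, adjusted p = 0.027, edgeR), a call lost without any 1 of the 4 control libraries (adjusted p up to 0.13). Sema3b and Sema3d did not pass in controls, with log2 fold changes of 0.37 and -0.13.

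Of the 13 membrane-bound ligands, 6 rose and 1 fell. Sema6d, a ligand of Plxna1, lay at 14.5 and 14.03 RPKM in the cortex controls, 15.8 and 14.3 in cortex KO, 27.7 and 28 in the hippocampus controls and 24.4 and 28.2 in hippocampus KO. Hippocampus libraries were all above 24 RPKM and cortex libraries all under 16 RPKM, with a log2 fold change of 0.89 in controls (SE 0.10, adjusted p = 0.00026, edgeR). Sema4d, the ligand of Plxnb1, lay at 10.1 and 9.76 RPKM in the cortex controls, 10.4 and 9.76 in cortex KO, 17.7 and 16.8 in the hippocampus controls and 15.7 and 17.98 in hippocampus KO. It too separated the tissues fully (0.72, SE 0.10, adjusted p = 0.00071, edgeR).

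Sema4a fell. This ligand, known from both immune and neural tissue, lay at 11.6 and 12.3 RPKM in the cortex controls, 10.95 and 12.9 in cortex KO, 5.7 and 7.23 in the hippocampus controls and 5.35 and 6.38 in hippocampus KO. The hippocampus values did not reach the cortex values, and it was 1.95-fold lower in controls (log2 fold change -0.96, SE 0.13, adjusted p = 0.00085, edgeR). Both class 5 genes, which carry thrombospondin repeats, rose. Sema5a lay at 6.01 and 5.2 RPKM in the cortex controls, 6.58 and 5.17 in cortex KO, 11.04 and 8.39 in the hippocampus controls and 9.63 and 9.12 in hippocampus KO, with a log2 fold change of 0.72 in controls (SE 0.17, adjusted p = 0.012, edgeR). Its call was lost without cortex control replicate 2 or hippocampus control replicate 1 (adjusted p up to 0.09). Sema5b gave 0.51 on that scale (SE 0.09, adjusted p = 0.003, edgeR). Sema6a, a ligand of Plxna2 and Plxna4, gave 0.56 (SE 0.09, adjusted p = 0.0018, edgeR).

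Sema4f was the last member of this class to pass in controls, with a log2 fold change of 0.47 (SE 0.13, adjusted p = 0.025, edgeR). Leaving out any 1 of the 4 control libraries ended that call (adjusted p up to 0.12). The most abundant membrane-bound ligands did not pass. Sema4g, a ligand of Plxnb2, lay at 37.8 and 45.98 RPKM in the cortex controls, 34.4 and 52 in cortex KO, 34.8 and 49.4 in the hippocampus controls and 37.3 and 52.4 in hippocampus KO. Replicate 2 was the higher library in each of the 4 groups, so the spread within a group was larger than any difference between tissues (-0.07, 95% interval -0.61 to 0.47). Sema4c, another ligand of Plxnb2, lay at 33.6 and 33.9 RPKM in the cortex controls, 33.8 and 34.6 in cortex KO, 33.2 and 37.5 in the hippocampus controls and 31.95 and 37.7 in hippocampus KO. Its libraries overlapped throughout. Sema7a, which is anchored by a lipid and binds Plxnc1 and integrins, lay at 33.3 and 32.9 RPKM in the cortex controls, 32.3 and 34.3 in cortex KO, 29.9 and 29.5 in the hippocampus controls and 25.3 and 32.5 in hippocampus KO. Its difference did not pass in controls (-0.23, SE 0.11, adjusted p = 0.17, edgeR), nor did those of Sema4b, Sema6b and Sema6c (0.02, -0.30 and -0.33).

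Among the 11 receptors, 5 rose and 3 fell. Both neuropilins rose. Nrp1, which also binds vascular endothelial growth factor, lay at 28.9 and 28.1 RPKM in the cortex controls, 31.2 and 28.7 in cortex KO, 159.8 and 151 in the hippocampus controls and 137 and 164 in hippocampus KO. Every hippocampus library was above 137 RPKM and every cortex library under 32 RPKM. In controls the means were 155.6 ± 5.93 RPKM in hippocampus and 28.5 ± 0.54 RPKM in cortex (SD, n = 2 each), and the log2 fold change was 2.38 (SE 0.12, 95% interval 2.10 to 2.65, adjusted p = 7.5e-06, edgeR), the largest of the 31. Nrp2 lay at 27.2 and 25.5 RPKM in the cortex controls, 30.1 and 25.98 in cortex KO, 110.1 and 102 in the hippocampus controls and 78.6 and 112 in hippocampus KO. It was 3.82-fold higher in control hippocampus (log2 fold change 1.93, SE 0.17, 95% interval 1.53 to 2.34, adjusted p = 0.00011, edgeR). Nrp1 and Nrp2 were about level in cortex (ratio 1.04 to 1.10), whereas Nrp1 was 1.45 to 1.75 times Nrp2 in hippocampus.

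The summed plexin RPKM overlapped between tissues, at 275.8 to 291.6 in cortex and 265.6 to 299.6 in hippocampus, but single plexins differed. Plxna4, which pairs with neuropilins for Sema3a and also binds class 6 semaphorins, lay at 37.6 and 31.6 RPKM in the cortex controls, 38.4 and 33.5 in cortex KO, 14.97 and 12.6 in the hippocampus controls and 15.3 and 13.7 in hippocampus KO. It was lower in all 4 hippocampus libraries, 2.64-fold in controls (log2 fold change -1.40, SE 0.14, adjusted p = 0.00019, edgeR). The other plexins A did not pass. Plxna2, the most abundant plexin, lay at 58.6 and 57.4 RPKM in the cortex controls, 61.7 and 58.3 in cortex KO, 58.4 and 59.7 in the hippocampus controls and 54.3 and 62.01 in hippocampus KO. Its values overlapped between tissues, and the 95% interval of the log2 fold change in controls ran from -0.27 to 0.17. Plxna1 and the X-linked Plxna3 gave 0.14 and 0.22. Of the summed plexin A RPKM, Plxna4 took 18.2% to 21.5% in cortex and 7.12% to 9.91% in hippocampus.

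Plxnd1, the receptor of Sema3e, also fell, with 26.9 and 23.9 RPKM in the cortex controls, 25.3 and 25.4 in cortex KO, 12.3 and 13.1 in the hippocampus controls and 11.6 and 12.9 in hippocampus KO. No hippocampus library came near the cortex values, and the log2 fold change in controls was -1.08 (SE 0.09, adjusted p = 8.2e-05, edgeR). Plxnc1, the receptor of Sema7a, lay at 17.3 and 17.1 RPKM in the cortex controls, 17.5 and 15.8 in cortex KO, 12.1 and 12.5 in the hippocampus controls and 11.5 and 11.6 in hippocampus KO, a smaller but complete separation (-0.56, SE 0.08, adjusted p = 0.00088, edgeR). All 3 plexins B, receptors of class 4 semaphorins, rose. Plxnb2 lay at 37.8 and 37.4 RPKM in the cortex controls, 38.7 and 42.1 in cortex KO, 50.8 and 50.02 in the hippocampus controls and 53.9 and 53.2 in hippocampus KO. All hippocampus libraries were above all cortex libraries, with a log2 fold change of 0.35 in controls (SE 0.07, adjusted p = 0.0066, edgeR). Its call was lost without cortex control replicate 2 or hippocampus control replicate 1 (adjusted p up to 0.065). Plxnb1 gave a log2 fold change of 0.40 (SE 0.07, adjusted p = 0.0034, edgeR). Plxnb3, X-linked and under 0.5 RPKM everywhere, gave 0.96 on that scale (SE 0.22, adjusted p = 0.01, edgeR), a call lost without cortex control replicate 2 or hippocampus control replicate 2 (adjusted p up to 0.072).

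Ligands and their known receptors did not always move together. Sema3e was higher and its receptor Plxnd1 lower in hippocampus. Sema3a and Plxna4 were both lower, whereas their partner Nrp1 was higher, and Nrp1 rose from 0.769 to 0.889 times Plxna4 in cortex to 8.99 to 12.01 times in hippocampus. Sema4d and Plxnb1 were both higher. For Sema3f and Nrp2 the directions were opposite.

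**Figure D2:**
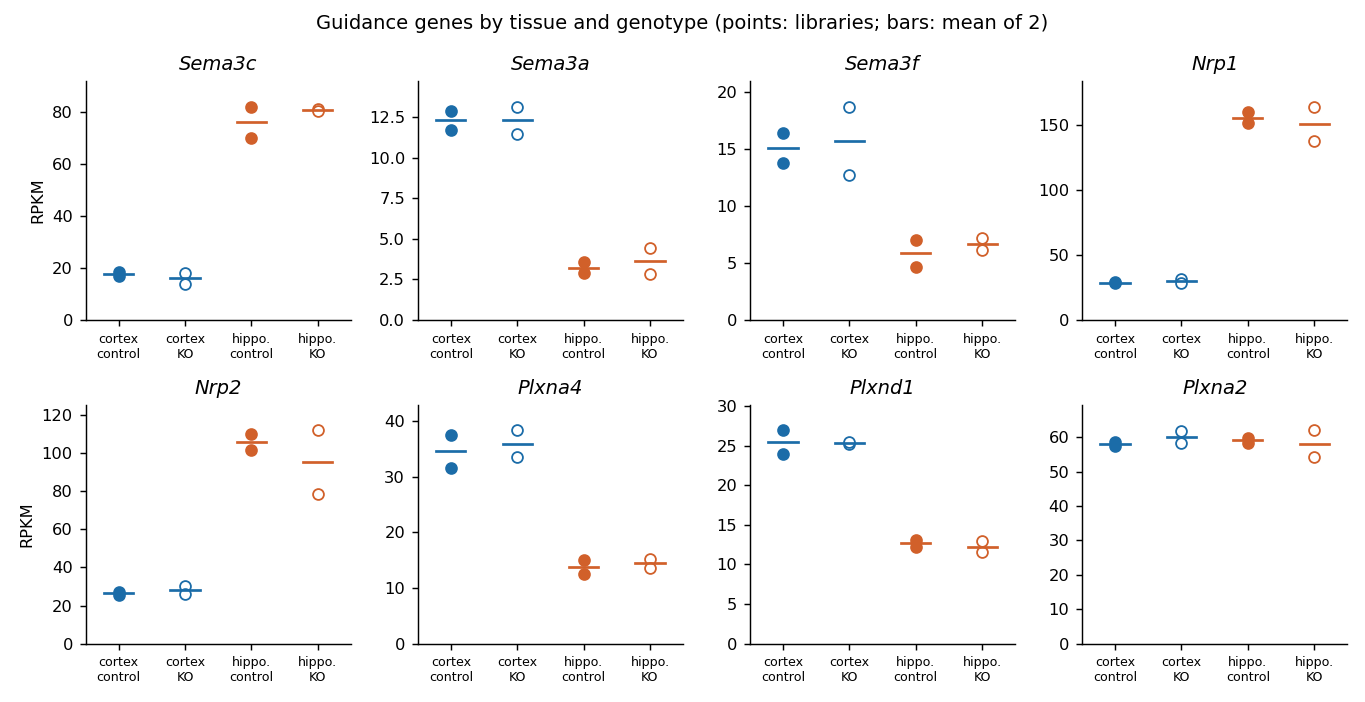
RPKM (linear axes from 0) of 8 ligands and receptors in the 4 groups, with a point per library and a bar at the mean of 2. Sema3c, Nrp1 and Nrp2 are higher and Sema3a, Sema3f, Plxna4 and Plxnd1 lower in hippocampus of both genotypes, while the group means of Plxna2 run from 58.02 to 59.99 RPKM.

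The same comparison in KO used the other 4 libraries and shares none with the controls. It called 20 members, 13 higher and 7 lower, where 40.0% of all genes passed (21.2% higher and 18.8% lower). The KO libraries of the tissues did not overlap for 22 members, against 68.4% of all genes. Of the calls, 19 were common to both genotypes with the same direction (13 higher, 6 lower). Sema4f passed in controls alone and Sema6b, a transmembrane ligand of class 6, in KO alone (-0.43, SE 0.13, adjusted p = 0.034, edgeR), a call lost without hippocampus KO replicate 1 or either cortex KO library (adjusted p up to 0.15). These do not show a difference between genotypes, since the interaction passed for no member (0 of 31 by edgeR and by DESeq2, 0 at an unadjusted p under 0.05 with either tool, and 0.0% of all genes). Over all 16111 genes tested, 158 had an unadjusted p under 0.05 for the interaction with edgeR, where 806 would be expected by chance.

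Log2 fold changes in KO were 2.23 for Nrp1, 2.23 for Sema3c, 1.66 for Nrp2, -1.87 for Sema3a, -1.42 for Plxna4, -1.34 for Sema3f, -1.16 for Plxnd1 and -1.13 for Sema4a, with adjusted p from 8.3e-06 to 0.0017 (edgeR). All 8 also passed without hippocampus KO replicate 1, where Nrp1 gave 2.36, Nrp2 1.90 and Sema3f -1.22. Across the 31 members the log2 fold changes of the genotypes had the same sign for 28 and Pearson's r of 0.993 (r over all genes 0.938), given as a description over genes, which are not independent replicates.

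**Figure D3:**
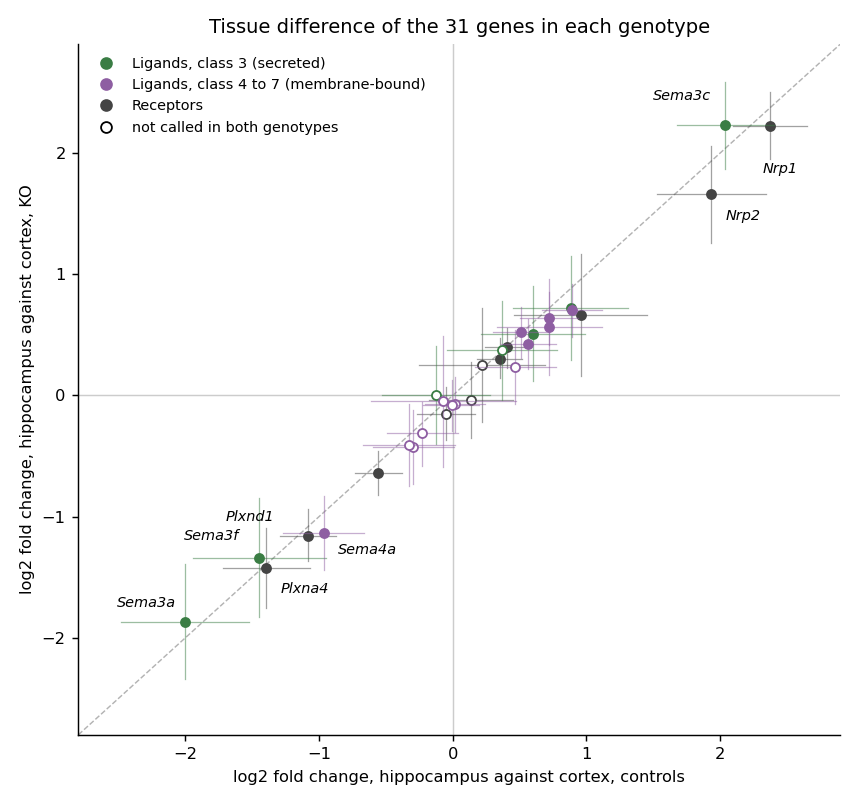
Log2 fold change of hippocampus against cortex in controls (x axis) and in KO (y axis) for the 31 genes, with lines for 95% intervals, colour for role and a dashed line of equal values. Points follow the dashed line from Sema3a (-2.00 in controls) to Nrp1 (2.38), and open points mark genes not called in both genotypes.

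With both genotypes in 1 model, 24 members differed between tissues, 15 higher and 9 lower, where 54.1% of all genes passed (29.0% higher, 25.0% lower). Added to the calls above were Sema3b (0.37, SE 0.12, adjusted p = 0.023), Sema6c (-0.37, SE 0.10, adjusted p = 0.012) and Sema7a (-0.27, SE 0.08, adjusted p = 0.014), all by edgeR. The Sema3b call was lost without any 1 of 4 libraries (cortex control 1, cortex KO 1, hippocampus control 1 or hippocampus KO 2, adjusted p up to 0.081). The 7 members that passed in none of the tissue comparisons were Plxna1, Plxna2, Plxna3, Sema3d, Sema4b, Sema4c and Sema4g.

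Partners of the pathway were counted from lists by role. In parentheses are log2 fold changes in controls. Of 18 co-receptors and alternative partners, 7 were higher and 5 lower in control hippocampus, 66.7% against 33.9% of all genes. Kdr, the vascular endothelial growth factor receptor that binds Nrp1, rose (0.71, SE 0.09, adjusted p = 0.00049, edgeR), as did Trem2 (0.98) and Tyrobp (0.92), a microglial pair that can join plexin A1. Met, the hepatocyte growth factor receptor that couples to plexins B, fell from 9.49 and 8.55 RPKM to 3.2 and 2.95 RPKM (-1.62, SE 0.23, adjusted p = 0.001, edgeR). Its relative Mst1r (-0.75) and the cell adhesion molecule Nrcam (-0.54, SE 0.11, adjusted p = 0.0065, edgeR), a partner of Nrp2, fell too.

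Of 8 CRMP and MICAL effectors, the cytoskeletal proteins downstream of Sema3a, 2 rose and 1 fell, 37.5% against 33.9% of all genes. Dpysl4, a CRMP, rose (0.95, SE 0.13, adjusted p = 0.00092, edgeR) with the MICAL oxidoreductase gene Mical2 (0.68), and Mical3 fell (-0.56). Among 16 small GTPases and their regulators, 4 rose and 4 fell, and the 3 Rnd genes, whose products bind plexins, were split. Rnd2 rose from 42.01 and 42.8 RPKM to 119 and 118 RPKM (1.41, SE 0.10, adjusted p = 2.8e-05, edgeR), whereas Rnd1 fell from 17.03 and 15.7 to 5.69 and 6.01 RPKM (-1.56, SE 0.09, adjusted p = 1.3e-05, edgeR) and so did Rnd3 (-0.80, SE 0.08, adjusted p = 0.00021, edgeR). Sh3bp1 (0.79) and Farp2 (0.64) also rose, and Farp1 fell (-0.55).

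Of 8 kinases and actin regulators, 1 rose and 2 fell, 37.5% against 33.9% of all genes. Limk1, which phosphorylates cofilin, rose (0.58, SE 0.10, adjusted p = 0.0028, edgeR), and its relative Limk2 (-0.58) and the Rac effector Pak1 (-0.67, SE 0.07, adjusted p = 0.00018, edgeR) fell. In KO the counts of higher and lower genes were 7 and 4 for the co-receptors, 2 and 3 for the CRMP and MICAL effectors, 3 and 6 for the GTPases and 1 and 2 for the kinases. These were 61.1%, 62.5%, 56.25% and 37.5% of the lists, against 40.0% of all genes. Each list held a mixture of directions in both genotypes.

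Markers of the labelled tissues and of other cells moved with the tissue. Beside the counts that follow, 33.9% of all genes passed in controls and 40.0% in KO. Of the hippocampus markers, 7 of 8 rose in control hippocampus (median log2 fold change 2.61), and of the cortical neuron markers 6 of 8 fell and 2 rose (median -1.32). All 8 striatum markers fell (median -3.08), with a summed level of 94.6 to 100.7 RPKM in the cortex libraries and 12.6 to 14.6 RPKM in the hippocampus libraries. All 8 interneuron markers fell (median -1.14), as did 5 of 6 oligodendrocyte lineage markers (median -0.71). Markers of Cajal-Retzius cells (6 of 6, median 2.01) and of neural progenitors (7 of 8, median 0.67) rose, and of the astrocyte markers 3 rose and 2 fell of 6.

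Among cells of vessels, membranes and blood, 5 of 7 microglia markers (median 0.79), 3 of 7 endothelium markers (median 0.29, Kdr being in this list too), 7 of 8 pericyte and meninges markers (median 2.18) and 6 of 7 choroid plexus markers (median 2.68) rose, and none of 6 red blood cell markers passed. Summed pericyte and meninges markers lay at 33.02 to 36.2 RPKM in cortex and 51.9 to 67.3 RPKM in hippocampus, and endothelium markers at 57.3 to 64.0 and 71.0 to 83.2 RPKM. Choroid plexus markers ranged from 1.81 to 7.96 RPKM in cortex and from 18.9 to 165.7 RPKM in hippocampus, highest in hippocampus control replicate 2. In KO hippocampus against KO cortex, 2 of 7 choroid plexus markers (median 1.10), 2 of 7 endothelium markers (median 0.20), 7 of 8 pericyte and meninges markers (median 1.62) and 7 of 7 microglia markers (median 0.76) rose, and in the other lists the counts in each direction were as in controls. No gene of these lists was at 0 in all libraries, and the part of these cells in the tissue differences of the members was not tested.

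The second comparison asked whether loss of Srrm4 changed the level of these genes. No member passed in cortex, in hippocampus or over both tissues (edgeR, 0 of 31 each), where 0.0186%, 0.0248% and 0.0621% of all genes passed. An unadjusted p under 0.05 was reached by 0 members in cortex, 1 in hippocampus (Sema4f) and 0 over both tissues with edgeR. Over all 16111 genes tested, 183, 614 and 713 reached that level with edgeR, where 806 would be expected by chance. DESeq2 also called no member in any of the 3 and gave 0, 1 and 1 at that level. Over both tissues the log2 fold changes ran from -0.22 to 0.12, and all 95% intervals lay within -0.50 to 0.43, with a median width to either side of 0.21. The labels do not say whether same-numbered cortex and hippocampus libraries of a genotype came from the same embryos. If they did, these intervals are too narrow, and with the counts of such libraries summed (2 against 2) 0 members passed, 0 had an unadjusted p under 0.05 and the intervals lay within -0.55 to 0.51 (edgeR, added after seeing the data). In cortex alone the intervals reached from -0.62 to 0.59 and in hippocampus from -0.77 to 0.66. Changes inside these bounds were not resolved by these libraries, and changes of isoform within a gene are not visible in gene totals.

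The member with the smallest p over both tissues was Sema4f, a transmembrane class 4 ligand. It lay at 13.4 and 13.5 RPKM in the cortex controls, 12 and 13.1 in cortex KO, 19.4 and 19.7 in the hippocampus controls and 13.5 and 18.3 in hippocampus KO. Both KO libraries were below both controls in each tissue, most clearly in hippocampus KO replicate 1. The log2 fold change was -0.21 over both tissues (95% interval -0.43 to 0.00, SE 0.09, adjusted p = 1.0, edgeR) and -0.33 in hippocampus (SE 0.13, unadjusted p = 0.036, adjusted p = 0.99, edgeR). Without hippocampus KO replicate 1 these were -0.10 (SE 0.04, unadjusted p = 0.034, adjusted p = 0.95, edgeR) and -0.12 (SE 0.07, unadjusted p = 0.16, adjusted p = 0.96, edgeR). Over both tissues Sema6c then gave 0.17 (SE 0.07, unadjusted p = 0.045, adjusted p = 0.95, edgeR). No member passed in that fit, where 5 of 15966 genes passed as higher and 2 as lower.

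Plxnb2 was the other member whose KO libraries lay on the same side of the controls in both tissues, above them (0.08 on the log2 scale over both tissues, SE 0.05, adjusted p = 1.0, edgeR). Those 2 of 31 members stand against 5.69% of all genes with KO libraries on 1 side of the controls in both tissues. Next by p over both tissues came Sema3e (-0.22, SE 0.13), Sema5b (0.09, SE 0.06) and Plxnc1 (-0.08, SE 0.05), each with an adjusted p of 1.0 (edgeR). Without hippocampus KO replicate 1 these log2 fold changes were -0.14, 0.12 and -0.07. Sema5b lay at 10.45 and 10.6 RPKM in the cortex controls, 10.4 and 11.98 in cortex KO, 14.8 and 16.8 in the hippocampus controls and 16.5 and 17.9 in hippocampus KO, with KO and control libraries overlapping in each tissue. Within cortex the KO and control libraries did not overlap for 3 members (Plxnb2 above, Sema3d and Sema4f below), against 20.6% of all genes. Within hippocampus they did not overlap for 4 members (Plxnb1 and Plxnb2 above, Plxnc1 and Sema4f below), against 27.2%. Over both tissues together no member separated, against 0.851% of all genes.

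The balance of directions among the small hippocampus differences turned when hippocampus KO replicate 1 was left out. In hippocampus 20 members had a negative and 11 a positive log2 fold change (median -0.05), and without hippocampus KO replicate 1 the numbers were 11 and 20 (median 0.05). Over both tissues 19 were negative and 12 positive, and 9 and 22 without that library. Nrp2 moved from -0.18 to 0.06 in hippocampus. With hippocampus KO replicate 2 left out in its place, 7 members had an unadjusted p under 0.05 in hippocampus and still none passed (lowest adjusted p = 0.12, edgeR).

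**Figure D4:**
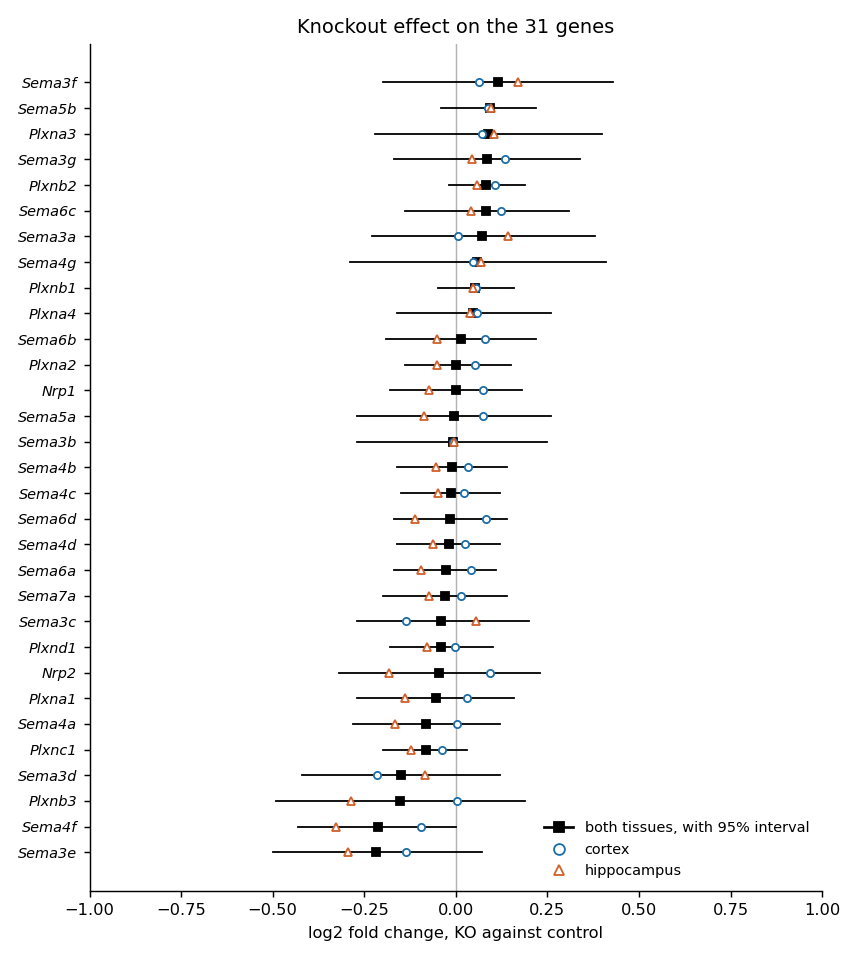
Log2 fold change of KO against control for the 31 genes, as squares with 95% intervals over both tissues, open circles for cortex and open triangles for hippocampus. All intervals of the squares lie within -0.50 to 0.43, with Sema3e and Sema4f at the low end and Sema3f at the high end.

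None of the 50 entries in the pathway lists passed for KO against control over both tissues (edgeR), and 3 reached an unadjusted p under 0.05. Over all 16111 genes tested, 713 reached that level. The 2 smallest p in each list belonged to Tyrobp and Trem2 (log2 fold changes 0.29 and 0.22), Dpysl2 and Crmp1 (-0.14 and -0.13), Sh3bp1 and Rap1b (0.28 and -0.10), and Cfl1 and Fes (-0.08 and 0.20). No cell type marker passed either. Over both tissues an unadjusted p under 0.05 was reached by 5 of 6 red blood cell genes (median log2 fold change 0.59), 2 of 7 microglia genes (median 0.14), 2 of 6 Cajal-Retzius genes (median 0.14), 2 of 8 progenitor genes (median -0.02), 1 of 8 interneuron genes (median -0.14) and 1 of 7 choroid plexus genes (median -0.41). In hippocampus the log2 fold change was negative for 8 of 8 interneuron markers (median -0.38, 5 with an unadjusted p under 0.05). So it was for 6 of 7 choroid plexus markers (median -0.65, 3 at that level). Their summed level was 18.9 and 165.7 RPKM in the controls and, between these, 32.9 and 33.15 RPKM in KO. Also negative were 6 of 6 oligodendrocyte lineage (median -0.23) and 8 of 8 pericyte and meninges markers (median -0.20). All 7 microglia (median 0.19) and 6 Cajal-Retzius markers (median 0.15) were positive. Among red blood cell genes 4 of 6 were at that level (median 0.75), against 614 of 16111 genes tested. For the interneuron markers the interaction with tissue was at that level for 5 of 8 (median -0.45), and the part of these cells in the KO values of the members was not tested. Y-linked genes summed to 35.3 and 144.1 CPM in the cortex controls and 25.4 and 0.319 CPM in cortex KO, and to 39.6 and 148.1 CPM in the hippocampus controls and 49.8 and 0.412 CPM in hippocampus KO. The labels give no sex, and these counts were near 0 in replicate 2 of KO alone. The KO differences of the X-linked Plxna3 (0.09) and Plxnb3 (-0.15) did not pass, and the part of sex in the KO values was not tested.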

How the data were processed

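Per the labels' protocols, Tri Reagent was used for RNA and the Illumina TruSeq kit for libraries. Bowtie and build mm9 are named in the submitters' processing notes. How reads were counted, on which strand and with which gene models was not given in the sources used here. The authors deposited, for each gene ID, a read count and an RPKM value. The RPKM column also holds 1114 cells with the text "ne" per table, which were treated as missing, and blank counts were read as 0. Runs 1 and 2 of replicate 1 share a table, so each of the 8 tables was used as 1 library. Nothing in the labels ties a library to its own animal, and a p-value here reflects only how far these libraries spread, part of which may be technical.

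Symbols came from GENCODE M21 (20759 of 22667 IDs matched). The 3 symbols Plxna4os1, Plxna4os2 and Plxna4os3, which the rule also covers, matched no gene ID in the tables. Counts were tested with edgeR 4.0.16 in R 4.3.3 (quasi-likelihood test, TMM, filterByExpr with minimum count 10 and minimum total count 15, Benjamini-Hochberg over 16111 genes, threshold 0.05, two-sided). Group means of 4 groups gave the contrasts within a tissue or genotype and the interaction. Additive models gave those over both. The standard error (SE) is the log2 fold change over the square root of F, and intervals are 95%. A floor of 3 counts equals 0.0214 to 0.0515 CPM. No replicate was a duplicate of another, as their counts differed beyond sampling noise (chi-square of 31.2 to 63.7 for each degree of freedom). Scripts were tested on simulated data. The alternatives were DESeq2 1.42.0, RLE scaling, no filter on low counts, limma 3.58.1 on log2(RPKM + 1), a replicate block, the 4 libraries of a contrast alone and each library left out. Added after seeing the data were counts summed over the tissues by genotype and number, and a block of genotype and number.

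The members, pathway lists and marker lists (cortical neurons, hippocampus, Cajal-Retzius cells, striatum, interneurons, progenitors, astrocytes, oligodendrocyte lineage, microglia, endothelium, pericytes and meninges, choroid plexus, red blood cells) were chosen with earlier results of these data known. Values in every library are given for up to 12 members that passed between tissues in controls, had a mean of at least 1 RPKM in a compared group and did not overlap, ranked by log2 fold change, for the 3 highest members of each role and for the 5 with the smallest p for KO. From the pathway lists up to 3 passing genes a direction are named.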

Additional observations from a re-analysis of the deposited data

How the results depend on the processing

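For the members called between tissues, the count of 20 in controls became 20 to 24 under the alternative tools, scalings, filters and fits and 14 (without cortex control replicate 2) to 23 with 1 library left out. The count of 20 in KO became 16 to 23 and 16 to 19, and that of 24 over both genotypes 23 to 25 and 23 to 25. For KO against control and the interaction, 0 members were called under every alternative run. Calls over all genes changed between settings as well. With the replicate number as a block, 22, 23 and 25 members differed between tissues. Over all 16111 genes that block called 3838 higher and 3215 lower in controls, against 3066 and 2398 without it. It called 4357 and 3794 in KO and 5340 and 4667 over both genotypes. The labels do not say what a number marks, and only 2 numbers exist. Deviations of same-numbered libraries correlated at 0.0961 to 0.282 between genotypes, and at 0.368 (control) and 0.38 (KO) between the tissues of a genotype, whose Y-linked genes summed to 35.3 and 39.6, 144.1 and 148.1 (control), 25.4 and 49.8, and 0.319 and 0.412 CPM (KO) in cortex and hippocampus. Whether those libraries share embryos was not tested. With genotype and number together as a replicate block, added after seeing the data, 24, 23 and 25 members differed between tissues and 0 in the interaction. Over all genes this second block called 4020 higher and 3368 lower in controls, 4576 and 3941 in KO and 5448 and 4748 over both genotypes. No direction of a called member reversed. Calls held under every alternative for 14 of 20 members in controls, 14 of 20 in KO and 22 of 24 over both genotypes. In KO, calls were lost for Plxnb2, Plxnb3, Sema6b and Sema3g in the 4 libraries of the contrast alone, Plxnb2 without cortex KO replicate 1, Sema6b with limma and without either cortex KO library or hippocampus KO replicate 1, Sema3e without replicate 2 of cortex KO or hippocampus KO, Sema5a without cortex KO replicate 2 or either hippocampus KO library, Plxnb3 without cortex KO replicate 1 or either hippocampus KO library and with DESeq2, and Sema3g in 10 settings (adjusted p up to 0.23 for Sema3g and 0.26 for Plxnb3). Over both genotypes limma ended the call of Sema7a (adjusted p = 0.063). The split of all genes called in KO hippocampus against KO cortex was 3415 higher and 3027 lower with edgeR and 4214 and 2160 with limma on RPKM, and over both genotypes 4679 and 4033 against 5694 and 3002. The larger side turned with DESeq2 (3043 higher and 3287 lower in KO, 4365 and 4470 over both genotypes) and, in KO, with RLE scaling (3194 and 3211; 4392 and 4380 over both genotypes). For KO against control over both tissues, all genes called were 6 higher and 4 lower with edgeR, 25 and 12 with DESeq2, 14 and 8 with the replicate block and 1 and 1 with the summed counts. The cause was not tested. With 2 libraries a group, the spread between libraries limits precision. Members under 1 RPKM also have few reads (Plxnb3, 66 to 248 counts a library), and the part of this in their spread was not tested.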

Other observations

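Some members shifted between replicate numbers in the same direction in all 4 groups. On the RPKM scale 9 were higher and 4 lower in replicate 2 of every group, 13 of 31 or 41.9%, against 31.9% of all genes. Sema4g was 1.22 to 1.51 times as high in replicate 2, Sema3f 1.17 to 1.496 times and Plxna3 1.24 to 1.42 times. Sema6c, Sema4a, Sema3b, Sema4c, Sema4f and Sema5b were higher in replicate 2 as well. Lower in replicate 2 of every group were Sema3a (0.640 to 0.911 times), Plxna4 (0.842 to 0.895 times), Sema5a and Sema3c. On TMM-scaled counts Sema3b, Sema4c, Sema4f, Sema5b and Sema3c no longer moved the same way in all 4 groups. Replicate 1 of each group joins 2 runs and was the deeper library.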
